A study of Mus musculus with 18 samples.

Results

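JAK2V617F+ marrow progenitors cultured with a blocking antibody (BA) to TNF receptor 1 (TNFR1) were compared with JAK2V617F+ progenitors from untreated cultures, on 5 of the 18 arrays of the series. The members were chosen by the array titles: TNFR1 BA JAK2V617F+ replicates 1 to 3 against untreated JAK2V617F+ replicates 1 and 2. Untreated JAK2V617F+ replicate 3 was left out for quality by the study's own criteria and is shown as a check only, under the name excluded array. All 10335 probe sets of the table used here were tested, and they gave 9636 genes with a symbol of their own. A listed gene is called measured where it was among these 9636, so others may still be on the array.

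The cells came from Balb/c mice with a myeloproliferative neoplasm (MPN). It was induced by a transplant of donor cells that had been infected with a retrovirus that carries JAK2V617F and GFP. The mutant kinase was thus over-expressed from a vector and not from its own locus. Marrow from several mice was taken for each of 3 independent experiments and cultured for 16 h in serum-containing medium with the cytokines SCF (100 ng/mL) and IL-3 (50 ng/mL), with no antibody, with TNFR1 BA or with TNFR2 BA, each antibody at 10 μg/mL. Lin-Kit+ cells were then sorted into GFP+ (JAK2V617F+) and GFP- (JAK2V617F-) fractions, which makes 6 groups. The controls were untreated, the labels name no control antibody, and control and treated cells alike had the retroviral JAK2V617F, the cytokines and the culture. The comparison asks which transcripts respond to TNFR1 block in the mutant progenitors.

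TNFR1 is the death-domain receptor of TNF. On ligand binding it recruits TRADD, RIPK1, TRAF2 and the cIAP ubiquitin ligases, and this complex switches on the NF-kB and MAP kinase pathways, while a later complex with FADD and caspase-8 can start apoptosis. TNFR2 has no death domain and reaches TRAF2 directly, and TNF is a known restraint on normal hematopoietic progenitors.

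Cry2 rose with TNFR1 BA, and it was the single probe set of 10335 that passed an adjusted p under 0.05 in limma (0.00968%). No probe set was lower at that threshold. At an unadjusted p under 0.05, 450 probe sets were higher (4.35%) and 251 lower (2.43%), together 6.78% of those tested. Values here are log2 signals per probe set, and each difference is TNFR1 BA minus untreated on that log2 scale.

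Cry2 encodes cryptochrome 2, a repressor of the CLOCK-BMAL1 transcription factor of the circadian clock. Its log2 signal was 3.24 and 3.37 on the untreated JAK2V617F+ arrays and 9.69, 9.29 and 9.53 on the TNFR1 BA arrays. The 3 treated arrays were all far above both untreated arrays and lay close together. The difference was 6.19 ± 0.86 (SE, n = 3 and 2), with a 95% interval of 4.39 to 7.99 and a limma adjusted p of 0.0117. On the excluded array Cry2 was 3.37, at the level of the untreated arrays that were used. An exact two-sided permutation test of the 3 treated against the 2 untreated arrays gave p = 0.2, and with the excluded array as a further control p = 0.1, in each case the smallest value this number of arrays allows.

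The other 12 arrays placed the low Cry2 signal in the untreated JAK2V617F+ cells. They ranged from 7.59 to 9.80, a range that took in all 3 TNFR1 BA JAK2V617F+ arrays (mean 9.50 ± 0.20, SD). TNFR2 BA JAK2V617F+ arrays read 8.36, 8.78 and 9.80, and their difference from the same untreated arrays was 5.67, beside the 6.19 of TNFR1 BA; both differences share their control arrays. In JAK2V617F- cells the mean was 9.05 ± 0.35 (SD, n = 3) untreated and 8.12 ± 0.52 (SD, n = 3) with TNFR1 BA, a difference of -0.93. The difference between the genotypes in the effect of TNFR1 BA was 7.12 ± 1.15 (SE) and did not pass (limma adjusted p = 0.0850).

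The Cry2 call depended on which arrays were in the fit. The difference itself stayed between 6.04 and 6.36 in 8 fits that each left out 1 array or 1 replicate number, but the adjusted p ranged from 0.0100 to 0.357, and the call was lost without untreated JAK2V617F+ replicate 2 (0.0548), without TNFR1 BA JAK2V617F+ replicate 1 (0.0666) and without replicate number 1 (0.103), 2 (0.340) or 3 (0.357). With the spread taken from the compared arrays alone the adjusted p was 0.899, and with array weights 0.0611.

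**Figure D1:**
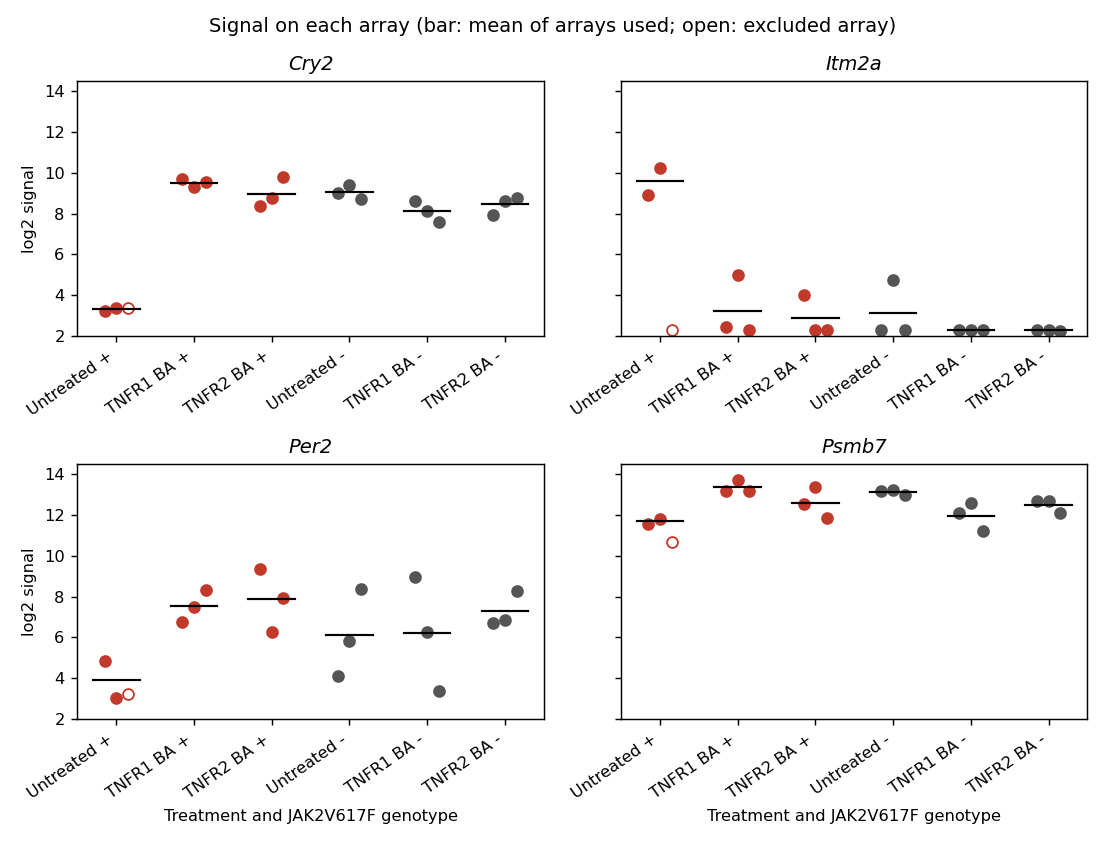
Log2 signal (y axis) of Cry2, Itm2a, Per2 and Psmb7 on each array of the 6 groups (x axis, + for JAK2V617F+ and - for JAK2V617F- cells). Points are arrays, bars are means of the arrays used, and the open point is the excluded array. Cry2 stands at 3.24 to 3.37 in untreated JAK2V617F+ cells and at 7.59 or more in every other group, whereas Itm2a is high on only the 2 untreated JAK2V617F+ arrays used and reads 2.30 on the excluded array.

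The promoter of Cry2 is shown because Cry2 is the gene that passed, with those of Tm9sf3 and Itm2a, which had the largest positive difference and the smallest p among the genes that were lower. Each runs from 250 bases before to 50 after the transcription start, 5′ to 3′ on the gene's strand, from RefSeq on GRCm38.p6. Capitals mark matches to 4 motifs, searched on both strands: CACGTG (E-box, bound by CLOCK-BMAL1), TGANTCA (AP-1), the NF-kB motif (GGG, any 2 bases, then TTTCC) and TTCNNNGAA (STAT). No motif matches overlapped in the windows shown.
Cry2, chr2:92434020-92434319, minus strand: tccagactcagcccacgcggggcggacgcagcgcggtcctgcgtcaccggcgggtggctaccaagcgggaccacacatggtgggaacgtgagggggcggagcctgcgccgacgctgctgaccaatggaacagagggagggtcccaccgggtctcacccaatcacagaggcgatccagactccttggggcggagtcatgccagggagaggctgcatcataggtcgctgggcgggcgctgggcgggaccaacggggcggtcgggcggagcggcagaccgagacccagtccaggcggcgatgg
Tm9sf3, chr19:41263955-41264254, minus strand: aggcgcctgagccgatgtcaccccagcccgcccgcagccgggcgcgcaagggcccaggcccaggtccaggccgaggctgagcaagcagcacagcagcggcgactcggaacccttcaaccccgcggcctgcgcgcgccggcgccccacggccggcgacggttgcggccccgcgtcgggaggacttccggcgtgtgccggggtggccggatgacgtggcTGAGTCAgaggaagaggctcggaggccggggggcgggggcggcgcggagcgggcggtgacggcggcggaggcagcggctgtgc
Itm2a, chrX:107403311-107403610, minus strand: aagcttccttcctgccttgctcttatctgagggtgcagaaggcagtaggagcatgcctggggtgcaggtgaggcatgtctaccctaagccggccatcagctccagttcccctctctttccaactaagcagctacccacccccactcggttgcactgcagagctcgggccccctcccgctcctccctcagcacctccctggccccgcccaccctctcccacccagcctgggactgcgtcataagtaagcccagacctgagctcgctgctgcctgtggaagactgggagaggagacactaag
The Cry2 and Itm2a windows held none of the 4 motifs, and the Tm9sf3 window held 1 AP-1 match. The share of all 32851 promoters with a match was 7.15% for CACGTG, 7.81% for TGANTCA, 1.63% for the NF-kB motif and 8.3% for TTCNNNGAA. The Cry2 window had 70.3% G and C and 30 CpG, and that of Itm2a 62% and 7, beside medians of 52.7% and 7 over all promoters.

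Beyond Cry2, the largest differences are given as values, since none of them passed. By the rule for named genes, 10 genes per direction were taken with the largest difference among those at an unadjusted p under 0.05 whose treated and untreated arrays did not overlap. The 10 higher genes had differences of 5.90 to 6.80, and the 10 lower genes of -7.62 to -5.37. These genes were picked for that difference, so the values describe them and support nothing further.

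Tm9sf3, a transmembrane 9 superfamily protein of the secretory pathway, read 2.29 and 3.43 untreated and 9.88, 8.77 and 10.34 with TNFR1 BA. The difference was 6.80 ± 1.47 (SE), with a limma adjusted p of 0.333. Both untreated arrays were near the bottom of the scale, as was the excluded array at 3.22.

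Fanci, a partner of FANCD2 in DNA crosslink repair, was 2.38 on both untreated arrays and on the excluded array, and 10.60, 6.08 and 10.20 with TNFR1 BA. Its TNFR1 BA arrays did not reach down to the untreated ones, but the spread among them, an SD of 2.50, was wide, and the difference of 6.58 ± 1.68 had an adjusted p of 0.448. Vcam1, a cell adhesion molecule and NF-kB target, read 2.46 on both untreated arrays and 10.02, 6.42 and 10.22 with TNFR1 BA, yet the excluded array read 8.47. Coq8a, which acts in coenzyme Q synthesis in mitochondria, read 2.40 on all 3 untreated arrays and 9.06, 7.40 and 9.03 with TNFR1 BA. In JAK2V617F- cells the Coq8a mean was 8.75 untreated and 3.28 with TNFR1 BA, the opposite order, and the difference between the genotypes was 11.57 ± 3.01 (adjusted p = 0.814).

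The remaining higher genes were Rapgef3, a cAMP-activated exchange factor for Rap, Commd7, a COMM-domain protein that acts on NF-kB, Ugp2, which makes UDP-glucose, Mfsd8, a lysosomal membrane protein, and Stk38l, an NDR-family kinase. Their differences were 6.56, 6.44, 6.42, 6.07 and 5.90. The untreated arrays of all 10 higher genes lay between 2.22 and 3.70, the lowest part of a scale that ran from 2.22 to 15.49, and their TNFR1 BA arrays between 4.82 and 11.11. With TNFR2 BA, JAK2V617F+ arrays read 5.95, 8.97 and 9.88 for Fanci and 7.10, 7.07 and 8.23 for Ugp2, above the same untreated arrays. Tm9sf3 (3.29), Rapgef3 (2.22), Vcam1 (2.46), Coq8a (3.13) and Mfsd8 (2.52) had a TNFR2 BA array near the untreated level.

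Among the lower genes, Itm2a, which encodes a type II membrane protein, had the smallest p. Its signal was 8.92 and 10.25 untreated and 2.44, 4.99 and 2.30 with TNFR1 BA. The difference was -6.35 ± 1.09 (SE), with an adjusted p of 0.0881. The excluded array read 2.30, as low as the treated arrays, and the 12 arrays of the other groups read 4.72 or less.

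Hmga2, an architectural chromatin protein of early progenitors, read 9.10 and 8.84 untreated, 10.38 on the excluded array, and 2.56, 2.52 and 2.22 with TNFR1 BA. All untreated arrays were thus above all treated ones, with a difference of -6.54 ± 1.82 and an adjusted p of 0.453. In JAK2V617F- cells the Hmga2 difference was 0.12, and that between the genotypes -6.66 ± 2.45 (adjusted p = 0.918). Gsdme, a gasdermin that caspase-3 cleaves to open membrane pores, read 9.33 and 10.57 untreated against 4.89, 3.59 and 4.70 with TNFR1 BA, with 3.19 on the excluded array.

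The other lower genes were Rsl1, a KRAB zinc finger repressor (-7.62), Dpf2, a subunit of BAF chromatin remodelling complexes (-6.86), Brd1, a bromodomain protein of histone acetyltransferase complexes (-6.18), Psmf1, a proteasome inhibitor (-5.72), Vrk1, a nuclear kinase (-5.65), Vps35l, of the retriever sorting complex (-5.45), and Hspa1l, an HSP70 family chaperone (-5.37). Dpf2 and Hspa1l lay at 2.24 or less on all 3 TNFR1 BA arrays, at or next to the lowest value of the table. Brd1 was less even, with 2.22, 8.74 and 2.22 on the TNFR1 BA arrays.

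The excluded array gave a check that had no part in choosing these genes. For the 10 higher genes it lay below all 3 TNFR1 BA arrays in 8, and for the 10 lower genes above all 3 in 4, namely Hmga2, Brd1, Vrk1 and Vps35l. Commd7 was among the 8, but its 8.14 there was just under treated arrays of 8.27 to 9.10. It was thus far above the 2.28 of both untreated arrays used. The excluded array was not below the treated ones for Rapgef3 (10.59) and Vcam1 (8.47). Over all genes it lay below the 3 TNFR1 BA arrays in 38.2% and above them in 24.1%. Over the genes whose arrays did not overlap, from which the named genes were drawn, it lay below in 66.5% of the 996 higher genes and above in 40.5% of the 753 lower genes, so the named genes were near those shares. That array read lower in general, with 36.5% of its probe sets under 4 against 19.6% to 26.0% on the 17 arrays used, and the part of this in the counts was not tested.

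**Figure D2:**
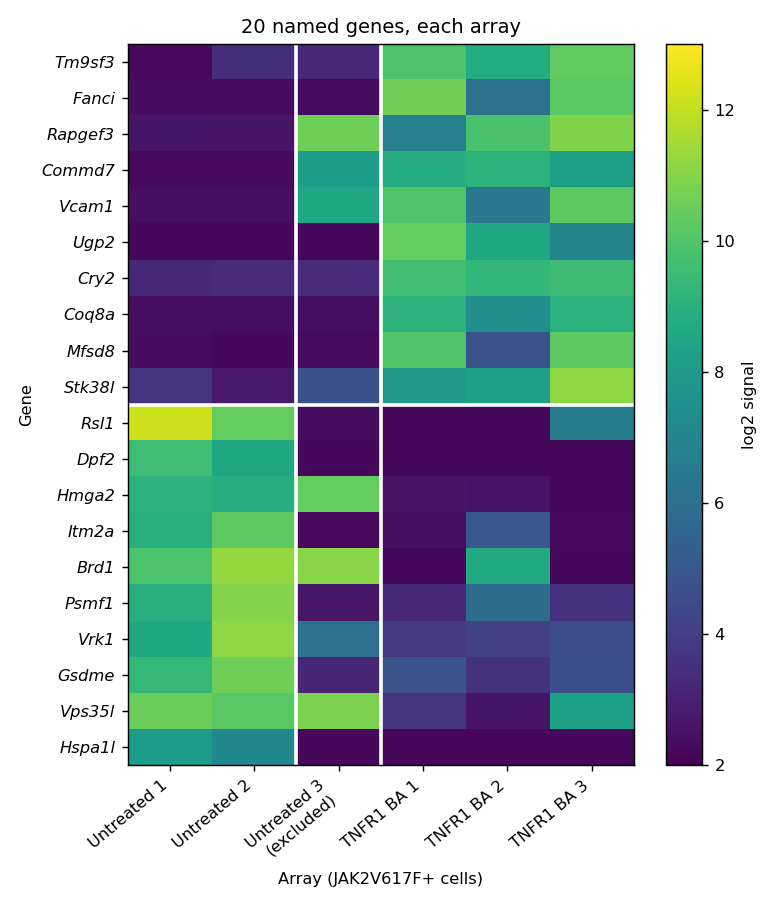
Log2 signal (colour scale) of the 10 higher and 10 lower named genes (rows) on the 6 JAK2V617F+ arrays, untreated and TNFR1 BA (columns), with the excluded array set apart between white lines. The excluded array shares the low untreated signal in most higher genes and is low with the treated arrays in most lower genes.

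**Figure D3:**
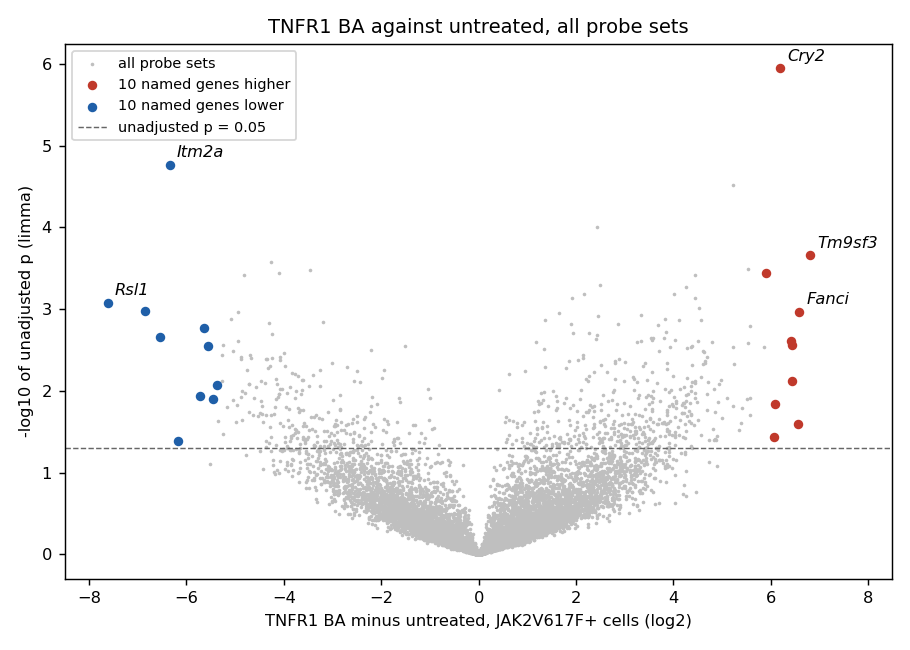
Difference between TNFR1 BA and untreated JAK2V617F+ cells (x axis, log2) against -log10 of the unadjusted limma p (y axis) for all 10335 probe sets in grey, with the 10 higher genes in red and the 10 lower genes in blue. Cry2, at 6.19, lies above every other probe set, and 450 probe sets to the right and 251 to the left lie past the dashed line at an unadjusted p of 0.05.

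Large swings between arrays of the same group were common in these data. The range over the 3 TNFR1 BA arrays exceeded 5 log2 units in 11.3% of probe sets, and the gap between the 2 untreated arrays did so in 8.75%. Of 9636 genes, 996 had all treated arrays above both untreated arrays (10.3%) and 753 had all below (7.81%). A difference over 0 was seen for 5231 genes (54.3%), and the median over all genes was 0.11. The median log2 signal was 7.42 to 7.75 on these 5 arrays and 6.05 on the excluded array, and correlations among the 5 arrays across probe sets ran from 0.654 to 0.771.

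The genes of TNF receptor signalling had differences of both signs. Of the 39 genes listed for the receptor complexes 33 were measured, of which 14 had a positive difference and 19 a negative one, with a median of -0.06 beside 0.11 for all genes. None passed the adjusted test, and 1 (Sharpin) was higher at an unadjusted p under 0.05, where 4.49% of all genes were. Tnf, Lta and Ripk1 were not among the genes of the table used here.

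Tnfrsf1a, the gene of TNFR1 itself, read 8.41 and 10.73 untreated and 11.11, 9.70 and 10.23 with TNFR1 BA. The groups overlapped, and the difference was 0.78 with a 95% interval of -1.06 to 2.61. Tnfrsf1b, the gene of TNFR2, read 11.25 and 10.90 untreated and 9.53, 12.62 and 11.41 with TNFR1 BA, a difference of 0.11 (-1.53 to 1.76). Both receptors were thus well up the scale in every JAK2V617F+ array, and the intervals leave room for a difference of over 1 log2 unit in either direction. Ltb, the ligand lymphotoxin beta, stayed between 2.22 and 2.47 on the 5 arrays.

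Sharpin, a subunit of the linear ubiquitin assembly complex that acts on the TNFR1 complex, read 11.80 and 11.55 untreated and 12.72, 13.19 and 12.68 with TNFR1 BA. The difference was 1.19 ± 0.34 (SE, adjusted p = 0.453), but the excluded array read 13.53, above all treated arrays. The adaptor Traf2 differed by 0.81, the cIAP genes Birc2 and Birc3 by 0.14 and -1.70, and Xiap, a caspase inhibitor, by 2.09, each with overlapping groups. The lowest and the highest value of the list were those of Traf6, an E3 ligase adaptor, at -4.07 and of Nsmaf, an adaptor for TNFR1-driven sphingomyelinase, at 2.53, and each had overlapping groups.

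In the death complex, 4 of 5 measured genes had a negative difference. Cflar, which encodes the caspase-8 inhibitor c-FLIP, read 8.01 and 2.54 untreated and 2.22, 2.22 and 2.32 with TNFR1 BA. The untreated arrays were far from each other, and the difference of -3.02 had a 95% interval of -6.82 to 0.78. Casp8 differed by -0.88 (-2.44 to 0.69).

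Of the NF-kB pathway's kinases, subunits and inhibitors, 16 of 18 were measured, 9 with a positive and 7 with a negative difference (median 0.19), and none passed. Tbk1, an IKK-related kinase, read 9.55 and 7.25 untreated, 2.22 on the excluded array, and 12.60, 10.86 and 10.15 with TNFR1 BA. All treated arrays were above the untreated ones, and the difference was 2.80 ± 0.86 (adjusted p = 0.475). Nfkbia, the inhibitor IkBa and a classical NF-kB target, read 9.37 and 7.68 untreated and 9.50, 9.76 and 10.70 with TNFR1 BA, a difference of 1.46 (-0.16 to 3.08). Of 8 inhibitors 6 had a positive difference, of 4 subunits 1. The kinase subunit Ikbkg (NEMO) differed by -4.05, with TNFR1 BA arrays at 2.94, 9.53 and 2.31.

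Among 20 measured NF-kB target genes, 13 had a positive difference, with a median of 0.46, and 2 were higher at an unadjusted p under 0.05, Vcam1 and Csf1 (10%, beside 4.49% of all genes). Csf1, the macrophage growth factor, read 2.28 and 2.68 untreated and 7.13, 6.25 and 2.22 with TNFR1 BA, so 1 treated array lay below both controls. With TNFR2 BA, JAK2V617F+ arrays read 8.36, 6.61 and 8.21 for Csf1 and 2.46, 9.03 and 10.02 for Vcam1. None of these targets passed the adjusted test. The mean level of the list was 6.44 and 6.73 untreated, 6.49 on the excluded array and 7.12, 7.44 and 7.34 with TNFR1 BA. With TNFR2 BA it was 7.36 to 7.61 in JAK2V617F+ cells. In JAK2V617F- cells it was 6.18 to 7.75 untreated and 6.29 to 6.85 with TNFR1 BA. These levels were not tested.

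**Figure D4:**
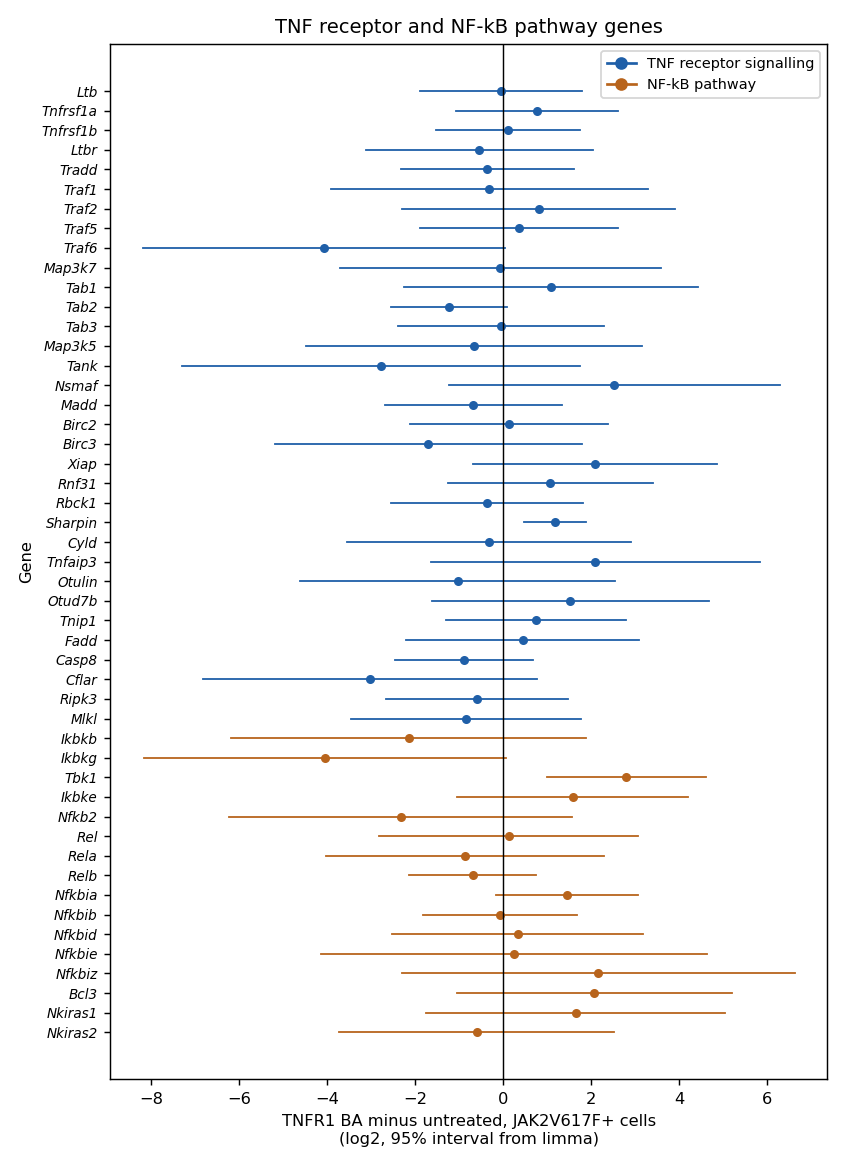
Difference between TNFR1 BA and untreated JAK2V617F+ cells (x axis, log2; points) with 95% intervals from limma (lines) for 33 TNF receptor signalling genes (blue) and 16 NF-kB pathway genes (orange). Only the intervals of Sharpin and Tbk1 leave out 0, before any adjustment for multiple tests.

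No gene of the downstream kinases or of apoptosis passed the adjusted test. In the MAP kinase cascade 31 of 39 genes were measured, with a median of 0.21. Mapk8 alone had an unadjusted p under 0.05 (3.23%, beside 6.94% of all genes). Mapk8, which encodes the kinase JNK1, read 3.42 and 2.25 untreated and 3.37, 7.10 and 9.76 with TNFR1 BA. The groups overlapped by replicate 1, and the difference was 3.91 ± 1.46 (adjusted p = 0.614). With TNFR2 BA the Mapk8 difference from the same untreated arrays was 5.34, and that of Xiap 8.37.

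In the apoptosis list 29 genes were measured, and Casp4, Cycs and Birc5 were higher at an unadjusted p under 0.05 (10.3%, beside 4.49% of all genes). The median was 0.42, and it ran from 0.0061 without untreated JAK2V617F+ replicate 2 to 1.26 without untreated JAK2V617F+ replicate 1. Casp4, an inflammatory caspase, read 5.14 and 7.20 untreated and 10.54, 10.00 and 10.30 with TNFR1 BA, with 2.64 on the excluded array. The treated arrays agreed closely and lay above all controls, and the difference of 4.11 ± 1.79 had an adjusted p of 0.705. Birc5, the mitotic protein survivin, overlapped between the groups, as 1 untreated array read 9.73 and the other 12.08.

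The circadian clock list had 12 of 16 measured genes positive and a median of 0.97, the highest of the 20 lists with all 5 arrays, followed by 0.87 for T and NK cell and 0.85 for megakaryocyte markers. Its median was 0.26 without TNFR1 BA JAK2V617F+ replicate 2, 0.29 without untreated JAK2V617F+ replicate 2 and 1.53 without untreated JAK2V617F+ replicate 1, and megakaryocyte markers reached 2.05 in such fits. This list was drawn up with the Cry2 result known, and 2 of its 16 genes, Cry2 and Per2, were higher at an unadjusted p under 0.05 (12.5%, beside 4.49% of all genes). Per2, a period protein that binds cryptochromes, read 4.85 and 3.01 untreated, 3.21 on the excluded array, and 6.77, 7.52 and 8.32 with TNFR1 BA. All treated arrays lay above all untreated ones, and the difference was 3.60 ± 1.62 (adjusted p = 0.710). With TNFR2 BA, JAK2V617F+ arrays read 9.38, 6.29 and 7.94 for Per2, also above the same untreated arrays. Cry1, the paralog of Cry2, read 9.83 and 9.71 untreated and 10.49, 9.46 and 9.71 with TNFR1 BA, a difference of 0.12 (-1.10 to 1.34). Dbp, a clock-controlled factor, differed by 3.86, but the excluded array read 10.46, above all treated arrays. Arntl, which encodes BMAL1, differed by -3.12 through 1 untreated array at 8.99, as the other array read 2.22. In JAK2V617F- cells the Per2 difference was 0.10 and that of Cry1 0.21.

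Of the 28 measured genes of JAK-STAT and cytokine receptor signalling 14 had a positive difference and the median was -0.02. Jak1 read 4.83 and 7.03 untreated and 9.11, 7.53 and 8.59 with TNFR1 BA, a difference of 2.48 ± 1.10 (adjusted p = 0.705), while the excluded array read 10.91. Jak2 read 10.77 and 8.35 untreated and 5.73, 8.48 and 9.09 with TNFR1 BA, with overlap. The Jak2 probe set did not set the GFP+ cells apart, as its mean was 9.56 in untreated JAK2V617F+ and 9.04 in untreated JAK2V617F- cells.

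The antioxidant genes had a median of -0.30, with 8 of 20 positive. Prdx2, a peroxiredoxin abundant in red cells, read 8.10 and 9.29 untreated and 7.41, 2.22 and 2.22 with TNFR1 BA, a difference of -4.75 ± 1.50 (adjusted p = 0.500). The excluded array read 2.22, so Prdx2 was high on both untreated arrays used and on 1 treated array. Asb17, a suppressor-of-cytokine-signalling box protein, gave the same picture, at 8.87 and 9.38 untreated, 2.22 on the excluded array and 7.14, 2.22 and 2.22 with TNFR1 BA.

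In the DNA damage list 25 genes were measured (median 0.25), and Ccng1, Ddb2 and Fanci were higher at an unadjusted p under 0.05 (12%, beside 4.49% of all genes). Ddb2, a p53 target of nucleotide excision repair, rested on untreated replicate 2, as the untreated arrays read 8.53 and 2.68 and the TNFR1 BA arrays 10.06, 10.66 and 9.41. On the excluded array Ddb2 read 11.26, above all treated arrays. In the cell cycle list, 10 of 13 measured replication and mitosis genes had a negative difference (median -0.39) and all 5 measured inhibitors a positive one (median 0.74). In that list 7 of 29 genes had all treated arrays below both controls, beside 7.81% of all genes. The mean level of the list overlapped, at 10.02 and 9.58 untreated and 9.55, 9.88 and 9.75 with TNFR1 BA, and the excluded array at 8.87 was below every treated array. Cdkn1b, which encodes the inhibitor p27, read 10.08 and 5.08 untreated and 10.12, 9.94 and 11.25 with TNFR1 BA, so that its difference of 2.86 ± 1.22 (adjusted p = 0.697) came with 1 low control array. Cdkn1b was also low on the excluded array, at 3.80. The interferon list had 6 of 12 measured genes positive (median -0.10), with Irf3 at 4.90 (adjusted p = 0.705), and the list of immediate early and heat shock genes 3 of 10 (median -0.30).

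Markers of the sorted cells and of other cell types overlapped between the groups for the most part. So did genes at large, as 18.2% of all genes did not overlap. Among 18 stem and progenitor markers, 1 had all treated arrays above both untreated arrays and 4 all below, beside 10.3% and 7.81% of all genes. Kit, used for the sort, read 7.17 and 5.81 untreated and 3.71, 8.21 and 9.04 with TNFR1 BA. Gata2 and Cd34, of progenitors, were between 9.69 and 11.74 on all 5 arrays. Tpsab1 and Mycn, of mast cells and progenitors, were at 10.16 or more on all 5 arrays, while Mycn was at 2.28 or less on all JAK2V617F- arrays. As the RNA came from a bulk of sorted cells, fewer cells of a type and less RNA per cell cannot be told apart.

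Mean marker levels over the list were 11.24 and 11.78 untreated and 10.58 to 12.05 with TNFR1 BA for mast cells and basophils (9 of 10 measured), and 9.80 and 9.89 untreated and 8.52 to 10.83 with TNFR1 BA for erythroid cells (10 of 14). Neutrophil markers were at 9.57 and 11.98 untreated and 10.01 to 12.65 with TNFR1 BA (10 of 11), and those of megakaryocytes at 4.80 and 6.69 and at 5.08 to 7.56 (6 of 10). T and NK cell markers were at 4.21 and 4.26 untreated and at 4.63 to 6.28 with TNFR1 BA, with 4 of 10 measured and Cd3e, Cd3d, Cd3g, Lck and Cd4 not among them, and of the cell type lists this was the only one whose levels did not overlap on the 5 arrays; the excluded array, at 5.25, lay above 2 of the 3 treated ones. Stem and progenitor markers were at 8.04 and 8.82 untreated and 8.01 to 9.02 with TNFR1 BA (18 of 18). B cell markers were at 3.39 and 5.16 and at 2.55 to 4.41 (5 of 9), and those of monocytes, macrophages and dendritic cells at 6.05 and 8.64 and at 6.47 to 6.94 (9 of 12). Within replicates 1 and 2, TNFR1 BA minus untreated was 0.07 and 0.44 for neutrophil markers and -0.84 and -0.75 for B cell markers, and in replicate 3, with the excluded array, 0.33 and -0.11. For T and NK cell markers these differences were 0.37, 0.54 and 1.03, and for the other cell type lists their signs were mixed over the 3 replicates. The part of these markers in the differences above was not tested.

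Of the 71 single markers measured in the 8 cell type lists, 3 had an unadjusted p under 0.05 (4.23%, beside 6.94% of all genes). Hoxb4, a progenitor transcription factor, read 2.51 and 3.22 untreated, 2.51 on the excluded array and 9.18, 8.07 and 6.12 with TNFR1 BA, a difference of 4.92 ± 1.80 (adjusted p = 0.607). Ermap, of erythroid membranes, differed by -2.20, with 13.33 and 12.45 untreated against 11.08, 11.07 and 9.91 with TNFR1 BA. Cd14, of monocytes, differed by -4.11, with 6.76 and 7.69 untreated against 4.68, 2.37 and 2.28. In their lists, 9 of 18 stem and progenitor, 4 of 10 erythroid and 5 of 9 monocyte, macrophage and dendritic cell markers were positive. The medians of these lists were 0.03, -0.41 and 0.08. The excluded array read 9.70 for Ermap and 2.22 for Cd14, below all treated arrays in both. With TNFR2 BA, JAK2V617F+ arrays read 5.22, 8.41 and 7.02 for Hoxb4, 11.72, 12.04 and 10.66 for Ermap and 2.31, 2.22 and 2.22 for Cd14. They thus lay on the same side of the shared untreated arrays as those of TNFR1 BA.

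**Figure D5:**
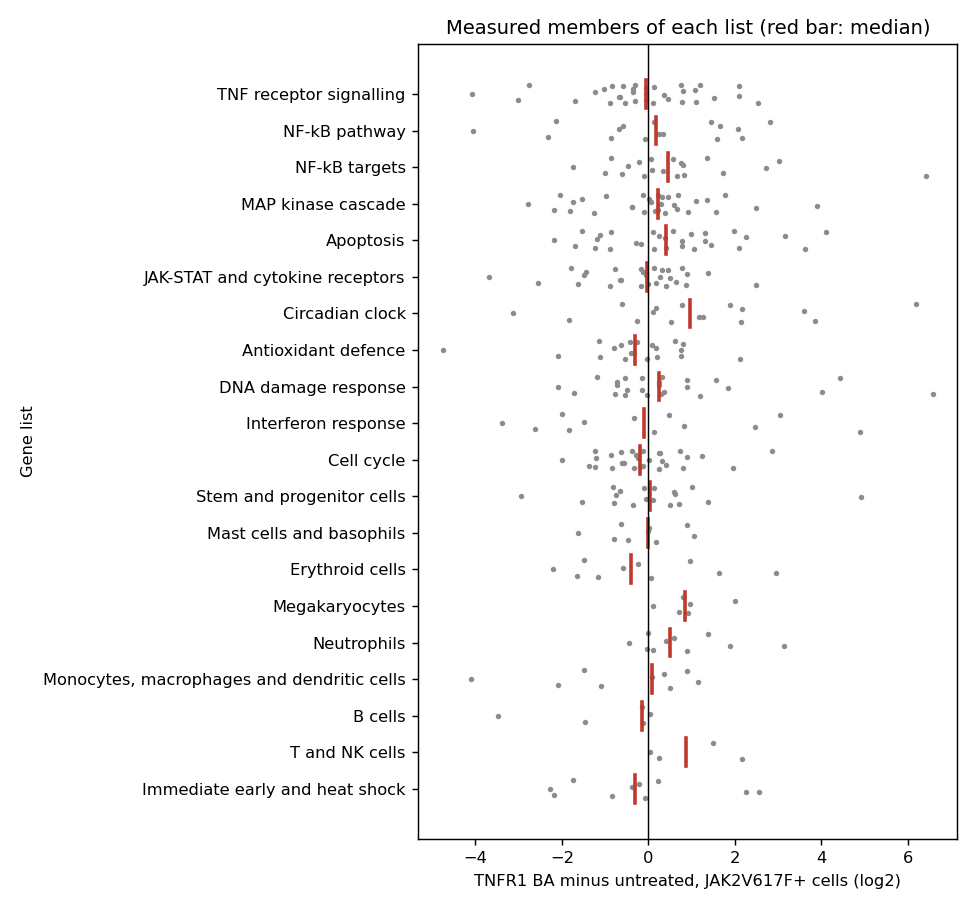
Difference between TNFR1 BA and untreated JAK2V617F+ cells (x axis, log2) of every measured member (points) of the 20 gene lists (y axis), with red bars at the medians. Medians lie between -0.41 (erythroid cells) and 0.97 (circadian clock), and single members spread on both sides of 0 in most lists.

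Whether TNFR1 BA acted differently in the mutant cells was tested as the difference between its effects in JAK2V617F+ and JAK2V617F- cells. No probe set passed in limma, and 540 (5.22%) had an unadjusted p under 0.05, of which 362 were higher (3.5%) and 178 lower (1.72%). The smallest p was that of Cry2, followed by Psmb7, Chd9, Galm and Cfdp1. Psmb7, a catalytic subunit of the proteasome, read 11.59 and 11.80 untreated and 13.16, 13.72 and 13.20 with TNFR1 BA in JAK2V617F+ cells. In JAK2V617F- cells it read 13.19, 13.22 and 13.01 untreated and 12.11, 12.59 and 11.20 with TNFR1 BA, so the order of the groups was turned around. The difference between the effects was 2.83 ± 0.57 (SE, adjusted p = 0.576), and with replicate number as a block 3.05, which passed (adjusted p = 0.0195).

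The effects on Galm, a galactose mutarotase, also had opposite signs, at 3.51 in JAK2V617F+ and -3.80 in JAK2V617F- cells, as did those on Cfdp1, a chromatin protein, at 1.95 and -1.08. Chd9, a chromodomain helicase, lay at 2.27 or less on the TNFR1 BA JAK2V617F+ arrays and differed by -0.61, against 4.66 in JAK2V617F- cells. Of the 10 higher genes named above, 6 had a positive difference in JAK2V617F- cells (-5.47 to 2.88, median 0.26). Of the 10 lower genes, 6 had a negative one (-2.24 to 2.52, median -0.21). Differences in JAK2V617F- cells thus had both signs in each set.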

How the data were processed

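RNA from Lin-Kit+ cells was amplified with the Ovation Pico system and hybridised to Affymetrix mouse expression arrays, and per the labels and the study's methods Affymetrix Expression Console made the values from scans by Affymetrix Command Console. The values that the authors deposited are log2 signals, 1 per probe set and array, used here as they stand; the sources used here do not give the normalization. This table has no detection calls and no counts, so no depth can be given, and values near the lowest, 2.22, have little order. Whole-transcript amplification of small RNA amounts can add spread between arrays.

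Symbols came from the platform annotation (9651 probe sets with 1 symbol, 27 with several, which name no gene, and 657 with none), and 9625 Entrez IDs matched the GRCm38.p6 gene table. Where more than 1 probe set named a gene, that of the highest mean stood for it. Arrays were grouped by their titles. Group means of 6 groups over 17 arrays were fitted with limma 3.58.1 (R 4.3.3, eBayes with a trend) and p-values adjusted by Benjamini-Hochberg over all 10335 probe sets, with a threshold of 0.05. The code was tested on simulated data. Single values were also compared by exact permutation of arrays.

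Named genes were those that passed, up to 10 per direction with the largest difference at an unadjusted p under 0.05 and no overlap, list members at an unadjusted p under 0.05, preset TNF pathway genes with Jak2 and Kit, genes the paper's text names (Itm2a, Prdx2, Asb17, Xiap, Mapk8) and Cry2, known from earlier results of these data, the 5 of smallest p for the difference between genotypes, and the lowest and highest member of each cell type list. Further pathway genes named with values were chosen after their values were seen. The comparison, the members and the 20 lists were chosen with earlier results of these data known.

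Equal replicate numbers were read as the same experiment, since the study's methods give 3 independent experiments with all 6 groups in each. For the pairs compared here, the deviations from the group means had correlations of 0.061 (replicate 1) and 0.114 (replicate 2). Over all groups the mean was 0.0083, 0.071 and 0.144 for replicates 1, 2 and 3, and -0.033 between different numbers. Neutrophil markers were at 9.57 to 11.29 on the replicate 2 arrays of the 6 groups and at 11.98 to 12.94 on the other arrays used. The main fit had no term for the replicate. Alternatives were the replicate number as a block, all 18 arrays, the compared groups alone, quantile normalization, leaving out dim probe sets (kept: over 5 on at least 3 arrays), no trend, array weights, the mean of a gene's probe sets, the methods' t-test and leaving out arrays. The methods name a paired t-test for JAK2V617F+ and JAK2V617F- cells of the same mice and an unpaired one for human samples. The use of either form for antibody against untreated was a choice made here.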

Additional observations from a re-analysis of the deposited data

How the results depend on the processing

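With 3 treated and 2 untreated arrays and a median residual SD of 1.45 log2 units, small differences could not be detected. With replicate number as a block Cry2 still passed (6.16, adjusted p = 0.0436), and counts at an unadjusted p under 0.05 were 480 higher and 271 lower; the block changed no other call on the TNFR1 BA difference, while Psmb7 became the 1 probe set that was higher for the difference between genotypes. The number that passed was 0 higher with the compared groups alone, with array weights and in the unpaired and paired forms of the methods' t-test, of which the unpaired one passed 2 lower; it was 1 lower with quantile normalization (Itm2a, adjusted p = 0.0354), and without the trend 2 higher (Cry2 and Clca3a1), 1 lower (Itm2a) and 1 for the difference between genotypes (Cry2). At an unadjusted p under 0.05 the counts were 284 higher and 203 lower in the unpaired form and 231 and 192 in the paired form, 263 higher with the compared groups alone, and 294 higher and 140 lower with array weights. With all 18 arrays they were 782 and 220, a share of 78.0% higher beside 64.2%, and the median of all differences was 0.29 in place of 0.10. Leaving out arrays or replicate numbers gave 0 to 115 probe sets that passed higher and 0 to 17 lower, and 0 to 19 higher and 0 to 1 lower for the difference between genotypes. The upper ends came without untreated JAK2V617F+ replicate 1, when the lone untreated array was assumed to vary like the other groups. Without replicate 1 the counts were 23 and 3. Without untreated JAK2V617F+ replicate 2 the share higher at an unadjusted p under 0.05 was 47.8%, and without replicate 2 44.2%. The cause of these changes was not tested.

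Signs turned in several genes, most of them with small differences. With the block they were -0.083 for Tnfrsf1b and -0.12 for Birc2. With all 18 arrays they were -0.64 for Tnfrsf1b, 0.39 for Casp8, 0.31 for Tpsb2, -0.56 for Gp1bb and -0.58 for Cd8a, and with quantile normalization -0.077 for Gp1bb and -0.10 for Cd8a. Leaving out arrays gave ranges across 0 for Tnfrsf1a (-0.77 to 2.26), Tnfrsf1b (-0.78 to 1.11), Ltb (-0.12 to 0.060), Traf2 (-0.15 to 1.38), Birc2 (-0.32 to 0.82), Jak2 (-3.36 to 0.43), Kit (-0.79 to 2.82), Arntl (-6.51 to 0.40), Per3 (-0.55 to 4.86), Chd9 (-1.26 to 0.028), Gp1bb (-2.59 to 2.81), Mmp8 (-1.07 to 0.27), Cd79b (-0.00078 to 0.067), Cd8a (-0.050 to 0.089), Cx3cr1 (-0.021 to 1.73) and Lcn2 (-0.61 to 6.90). Arntl (-3.12), Lcn2 (3.14), Per3 (2.16) and Jak2 (-1.79) had large differences over all arrays. Leaving out 1 of the 5 arrays also turned the sign of list medians, which ran from -0.22 to 0.21 for TNF receptor signalling, -0.26 to 0.44 for the NF-kB pathway, -0.13 to 0.50 for the MAP kinase cascade, -0.48 to 0.20 for JAK-STAT, -0.028 to 0.60 for DNA damage and -0.20 to 0.48 for interferon genes. Those of NF-kB targets (0.26 to 0.63), antioxidant (-0.41 to -0.027), cell cycle (-0.28 to -0.12) and immediate early genes (-0.63 to -0.074) did not turn. Among cell type lists, medians turned for stem and progenitor (-0.42 to 0.051), mast cell (-0.38 to 0.25) and erythroid markers (-0.62 to 0.093). They also turned for neutrophil (-0.099 to 1.11) and monocyte, macrophage and dendritic cell markers (-2.37 to 0.69). Medians of megakaryocyte (0.43 to 2.05) and T and NK cell markers (0.037 to 1.28) did not turn, and that of B cell markers reached -2.64.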

Other observations

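The genes with the smallest p after Cry2 and Itm2a lay outside the rule for named genes for the most part and are named after their values were seen. None passed the adjusted test. Clca3a1, a chloride channel accessory protein, read 2.22 and 2.52 in untreated JAK2V617F+ cells and 8.52, 7.16 and 7.08 with TNFR1 BA, a difference of 5.22 ± 0.94 (SE, limma adjusted p = 0.105), while the excluded array read 9.59. Sarnp, of mRNA export, read 10.67 and 9.44 untreated and 12.27, 12.34 and 12.83 with TNFR1 BA, a difference of 2.43 ± 0.49 (adjusted p = 0.259), with 2.48 on the excluded array. Clca3a1 was thus as high on the excluded array as on the treated ones, and Sarnp lower there than on any of the 5 arrays.

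Other genes of similar rank went either way. Maged1, a MAGE family adaptor, read 6.01 and 5.97 untreated and 2.70, 2.62 and 2.23 with TNFR1 BA. Vps18, of the endosomal tethering complexes, read 7.92 and 6.11 against 2.54, 3.22 and 2.51. On the excluded array they read 2.23 and 4.37, so Maged1 was as low there as on the treated arrays. Cklf, a chemokine-like factor, read 3.97 and 5.32 untreated, 5.28 on the excluded array and 8.47, 9.34 and 8.92 with TNFR1 BA, and Hmgn5, a nucleosome-binding protein, 9.58 and 8.45, 8.83, and 11.38, 11.44 and 11.72. For both, all 3 untreated arrays lay below all treated ones, with differences of 4.27 ± 1.01 and 2.50 ± 0.59 (adjusted p = 0.395 for both). In JAK2V617F- cells the differences were 0.42 for Cklf and -0.57 for Hmgn5.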
